A study of Mus musculus with 235 samples.

Results

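Smad3 and 9 related genes of transforming growth factor beta (TGF-beta) signalling were followed in punched tissue of 8 brain regions of mice given dexamethasone, a synthetic glucocorticoid, or vehicle. The 10 genes are Smad1, Smad2, Smad3, Smad4, Smad5, Smad7, the ligand gene Tgfb2, the receptor genes Tgfbr2 and Tgfbr3, and Skil, and they are 10 of the 27998 genes in the count table. Smad3 was selected on its measured log2 fold change after dexamethasone, which had opposite signs in different regions of these same libraries. Its responses are therefore described without a test. The other 9 genes were listed for their place in the pathway, with results of these data already known.

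The 30 animals were male C57Bl/6 mice, 3 months old and group-housed, and no transgene or mutant allele is recorded. Dexamethasone at 10 mg per kg was injected into the peritoneum of 15 animals, 15 received saline by the same route, and all were examined after 4 h. Brains were perfused, and 4 hippocampal regions (dCA1, dDG, vCA1 and vDG in the labels) and the regions labelled PVN, PFC, AMY and CER were punched from coronal sections. In the hippocampal names d is read as dorsal and v as ventral. Every animal could give 1 library per region, and 235 libraries were analysed: 13 in the dCA1 dexamethasone group, 14 in each of the PFC dexamethasone, PVN vehicle and vCA1 vehicle groups, and 15 in each other group.

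The libraries held between 268538 and 1451422 counts each (median 742957), and RNA integrity numbers (RIN) from 2.2 to 9 with a median of 6.4. In 6 libraries, 3 of them from dexamethasone-treated animals, the RIN was under 4. Some punches did not match their labels' defining genes. No vehicle library of CER (0 of 15) had a count of Gabra6, which marks granule cells of the cerebellum, so CER is used here as a label only. Gabra6 exceeded 50 counts per 1000000 (CPM, scaled for composition) in 5 libraries of vDG or vCA1. In PVN, Oxt, the oxytocin gene, ran from 4.93 to 1455 CPM in vehicle libraries (median 116.8 CPM). After dexamethasone it ran from 1.22 to 1593 CPM there (median 652.5 CPM). The PVN medians of Avp, the vasopressin gene, were 34.5 CPM in vehicle libraries and 97.4 CPM after dexamethasone. Whether PVN punches differed in content between arms was not tested. Prox1, a gene of dentate granule cells, averaged 515.4 ± 140.8 CPM in dCA1 (SD, n = 15) and 456.2 ± 250.6 CPM in dDG (SD, n = 15), against 103.1 ± 39.1 CPM in vCA1 (SD, n = 14). The mean of Prox1 was thus no lower in the punches labelled dCA1 than in those labelled dDG. In vehicle libraries Wfs1, a gene of CA1 pyramidal cells, averaged 42.5 ± 25.2 CPM in dCA1 (SD, n = 15). It averaged 41.6 ± 18.6 CPM in vCA1 (SD, n = 14), 57.7 ± 38.2 CPM in dDG and 71.3 ± 43.9 CPM in vDG (SD, n = 15 each). The hippocampal names, vCA1 among them, are therefore used here as labels too. How much CA1 or dentate tissue these punches held was not tested.

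Ligands of the TGF-beta branch bind Tgfbr2, which recruits a type I receptor that phosphorylates the proteins of Smad2 and Smad3. The bone morphogenetic protein (BMP) branch uses other receptors and the proteins of Smad1 and Smad5. Both branches share Smad4, are restrained by Smad7, and act on target genes in the nucleus, where the SnoN protein of Skil represses Smad complexes. Tgfbr3 encodes betaglycan, a co-receptor that presents ligand, in particular the product of Tgfb2. In the brain the pathway is known for maintaining microglia and for its part in vessels, glia and neurons.

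Smad3 (ENSMUSG00000032402) lies on the minus strand of chromosome 9 at chr9:63646767-63757994 in mm10 coordinates, with 5542 exon bases in the authors' annotation. Smad1 (ENSMUSG00000031681) lies on the minus strand at chr8:79338395-79399518, and Tgfb2 (ENSMUSG00000039239) on the minus strand at chr1:186622792-186705989. The 3' end assay counts exonic tags near the ends of transcripts, so promoters were not measured. The promoter windows of these 3 genes, from RefSeq on GRCm38.p6, are shown because Smad3 was selected and Smad1 and Tgfb2 were called in edgeR's fit without covariates. Each window of 300 bases runs from 250 bases before to 50 after the annotated start, and the windows are chr9:63757945-63758244 for Smad3, chr8:79399379-79399678 for Smad1 and chr1:186705940-186706239 for Tgfb2, each read 5′ to 3′ on the minus strand. Capitals mark a match to CAGACA or TGTCTG, the letters of a SMAD-binding element, or to AGAACA or TGTTCT, those of a glucocorticoid receptor half-site.
Smad3: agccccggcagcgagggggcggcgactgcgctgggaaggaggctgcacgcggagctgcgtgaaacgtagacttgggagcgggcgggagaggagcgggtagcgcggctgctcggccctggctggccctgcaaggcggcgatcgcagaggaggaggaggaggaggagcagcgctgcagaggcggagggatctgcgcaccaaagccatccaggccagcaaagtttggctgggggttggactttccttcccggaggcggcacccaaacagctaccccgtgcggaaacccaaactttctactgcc
Smad1: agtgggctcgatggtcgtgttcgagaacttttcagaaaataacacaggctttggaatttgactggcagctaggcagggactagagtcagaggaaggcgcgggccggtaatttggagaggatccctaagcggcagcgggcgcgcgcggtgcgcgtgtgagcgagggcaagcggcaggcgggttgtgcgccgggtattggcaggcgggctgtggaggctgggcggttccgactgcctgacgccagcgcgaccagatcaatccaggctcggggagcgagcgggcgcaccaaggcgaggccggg
Tgfb2: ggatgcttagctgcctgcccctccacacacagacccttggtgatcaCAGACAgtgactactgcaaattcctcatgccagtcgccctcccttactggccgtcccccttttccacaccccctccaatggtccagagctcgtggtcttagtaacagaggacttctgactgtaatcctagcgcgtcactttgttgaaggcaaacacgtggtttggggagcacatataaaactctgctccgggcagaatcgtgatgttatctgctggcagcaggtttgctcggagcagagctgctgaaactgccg
Both strands were searched, and no matches overlapped. The SMAD letters occurred once, at position 47 of the Tgfb2 window counted from its 5′ end, and the glucocorticoid receptor letters in none of the 3 windows. Of 32851 RefSeq promoter windows of the same length, 21.04% held the SMAD letters and 18.97% the glucocorticoid receptor letters, so a match or its absence is a description of these letters only. The Smad3 window was rich in G and C, at 67.7%, and held 25 CpG dinucleotides, against medians of 52.7% and 7 over all windows. This was not particular to Smad3, as the Smad1 window had 65.0% and 31. The Tgfb2 window had 54.3% and 10. RefSeq windows were matched for 5 of the 10 genes.

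In vehicle animals, the mean of Smad3 was highest in the dorsal hippocampal punches and lowest in PVN. In vehicle libraries it averaged 142.5 ± 31.7 CPM in dCA1 (SD, n = 15) and 131.5 ± 50.9 CPM in dDG (SD, n = 15). It then followed at 99.7 ± 17.2 CPM in PFC (SD, n = 15), 97.3 ± 24.6 CPM in vDG (SD, n = 15) and 73.4 ± 12.9 CPM in vCA1 (SD, n = 14). The lowest levels were 62.8 ± 16.8 CPM in AMY (SD, n = 15), 46.6 ± 13.5 CPM in CER (SD, n = 15) and 39.9 ± 7.14 CPM in PVN (SD, n = 14). The range from dCA1 to PVN was 3.57-fold. The vehicle libraries also entered the contrast on which Smad3 was selected, so this order is not independent of that choice. It is given as a description, with no test. In each of the 7 neighbouring pairs the means lay closer together than the larger of the 2 SDs.

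After dexamethasone, Smad3 was lower in dCA1 and higher in vCA1, and the gap between them in vehicle animals was nearly gone. In dCA1 the 15 vehicle libraries ran from 76.2 to 199.9 CPM with a median of 144.4 CPM. The 13 dexamethasone libraries ran from 80.2 to 152.4 CPM with a median of 103.6 CPM. Both groups overlapped, and 1 of 13 dexamethasone libraries lay above the vehicle median. The log2 fold change was -0.42 ± 0.11 (SE), from a mean of 142.5 to 107.3 CPM.

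In vCA1 the 14 vehicle libraries ran from 49.6 to 101.1 CPM with a median of 73.2 CPM. The 15 dexamethasone libraries ran from 71.0 to 129.4 CPM with a median of 99.6 CPM. The groups overlapped, but 14 of 15 dexamethasone libraries lay above the vehicle median and 7 of 15 above the highest vehicle library. The log2 fold change was 0.45 ± 0.096 (SE), from a mean of 73.4 to 100.7 CPM. The response in vCA1 exceeded that in dCA1 by 0.87 ± 0.15 on the log2 scale (SE). This difference is not independent of the opposite signs in regions by which Smad3 was selected. Without the libraries over 50 CPM of Gabra6, the fold change in vCA1 was 0.47 and the difference 0.89.

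**Figure D1:**
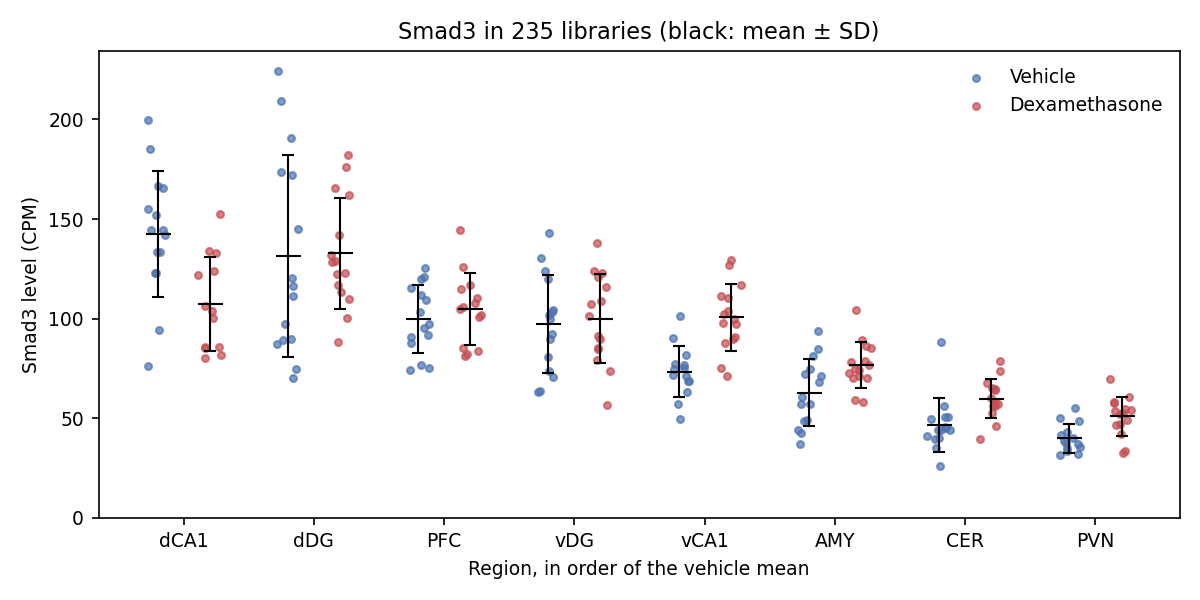
Smad3 level in CPM (vertical axis) in each of 235 libraries by region (horizontal axis, in order of the vehicle mean), with vehicle in blue, dexamethasone in red, and black marks for the mean ± SD. Dexamethasone libraries sit lower in dCA1 (mean 107.3 against 142.5 CPM) and higher in vCA1 (100.7 against 73.4 CPM), AMY, CER and PVN.

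Smad3 was also higher after dexamethasone in the 3 regions with the lowest vehicle levels. In PVN the libraries ran from 31.3 to 55.0 CPM in vehicle animals, with a median of 38.1 CPM, and from 32.3 to 69.5 CPM in treated ones, with a median of 52.8 CPM. In CER the vehicle range was 26.0 to 88.2 CPM with a median of 44.1 CPM, and the dexamethasone range 39.7 to 78.7 CPM with a median of 58.2 CPM. In AMY the ranges were 37.3 to 93.7 CPM (median 60.4 CPM) and 58.3 to 104.2 CPM (median 74.8 CPM). The groups overlapped in each of these regions, while 13 of 15, 14 of 15 and 13 of 15 dexamethasone libraries lay above the vehicle median in PVN, CER and AMY. The log2 fold changes were 0.35 ± 0.11 in PVN, 0.35 ± 0.12 in CER and 0.29 ± 0.11 in AMY (SE).

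In the remaining 3 regions the arms lay close together. In PFC, vehicle libraries ran from 74.3 to 125.6 CPM (median 97.5 CPM) and dexamethasone libraries from 81.3 to 144.6 CPM (median 105.4 CPM). In vDG the ranges were 62.9 to 143.2 CPM (median 99.6 CPM) and 56.7 to 137.9 CPM (median 101.2 CPM). In dDG they were 70.0 to 224.6 CPM (median 116.4 CPM) and 88.4 to 182.0 CPM (median 128.3 CPM). The groups overlapped in each, with log2 fold changes of 0.07 ± 0.093 in PFC, 0.04 ± 0.12 in vDG and 0.00 ± 0.15 in dDG (SE). Within dDG, 11 of 15 dexamethasone libraries lay above the vehicle median while the means were 132.7 ± 27.7 CPM after dexamethasone and 131.5 ± 50.9 CPM in vehicle libraries (SD, n = 15 each).

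By library plate and by punching date, the Smad3 differences describe parts of the same libraries on which it was selected. Of the 5 punching dates, 1 had a single vehicle library per region and was not compared for any gene. In dCA1 the difference of mean log2(CPM + 1) was negative on each of the 4 library plates, from -0.60 to -0.16, and on each of 4 punching dates, from -0.58 to -0.36. In vCA1 it was positive on each of the 4 plates, from 0.11 to 0.68, and on each of 4 dates, from 0.12 to 0.63. It was also positive on each of the 4 plates and 4 dates compared in AMY, CER and PVN, down to 0.01 on 1 date in PVN. Signs were mixed by date in PFC, and by both date and plate in dDG and vDG.

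Since dCA1 and vCA1 punches came from the same animals, Smad3 was set side by side within each animal. Among 14 vehicle animals the log2 ratio of vCA1 to dCA1 ran from -1.55 to 0.25 with a median of -0.98, and it was above 0 in 1 animal. That animal, vehicle replicate 1, had 76.2 CPM in dCA1, the lowest of the vehicle dCA1 libraries, and 90.5 CPM in vCA1. Among 13 dexamethasone animals the ratio ran from -0.64 to 0.38 with a median of -0.19, and it was above 0 in 6 animals. The means were -0.94 ± 0.42 (SD, n = 14) and -0.083 ± 0.40 (SD, n = 13).

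**Figure D2:**
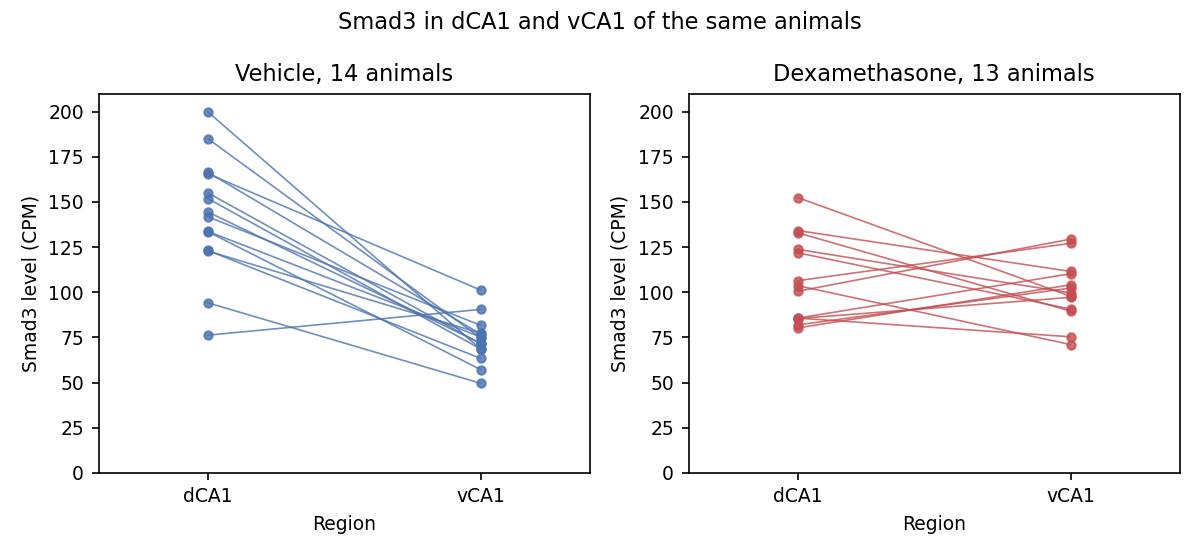
Smad3 level in CPM (vertical axis) in dCA1 and vCA1 (horizontal axis) of 14 vehicle animals (left) and 13 dexamethasone animals (right), with a line joining the 2 libraries of an animal. In 13 of 14 vehicle animals the line falls from dCA1 to vCA1, while after dexamethasone it rises in 6 of 13 animals.

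The mean level of 6 dentate granule cell genes after dexamethasone was higher in vCA1 and lower in dCA1 than in vehicle libraries, a difference that was not tested as a mean. This dentate level, the mean log2(CPM + 1) of Dsp, Stxbp6, Lct, Tdo2, Plk5 and Npnt, was 3.28 ± 0.79 in vCA1 vehicle libraries (SD, n = 14) and 4.20 ± 0.76 after dexamethasone (SD, n = 15). In dCA1 it was 6.27 ± 0.53 in vehicle libraries (SD, n = 15) and 5.85 ± 0.89 after dexamethasone (SD, n = 13). It was close between arms in dDG, at 5.91 ± 1.02 and 5.97 ± 1.00 (SD, n = 15 each), and in vDG, at 4.16 ± 0.95 and 4.24 ± 0.71 (SD, n = 15 each). Outside the hippocampus, where Smad3 was higher after dexamethasone in 3 regions, the dentate level was 2.82 ± 0.42 and 2.73 ± 0.35 in AMY and 3.14 ± 0.56 and 2.94 ± 0.39 in CER (vehicle first, SD, n = 15 each). In PVN it was 2.74 ± 0.24 in vehicle libraries (SD, n = 14) and 2.84 ± 0.32 after dexamethasone (SD, n = 15), and in PFC 3.08 ± 0.21 (SD, n = 15) and 3.13 ± 0.34 (SD, n = 14). As single genes, Dsp (log2 fold change 1.95) and Npnt (1.22) were higher in vCA1 out of 3 dentate markers tested, and Plk5 (-0.82) was lower in dCA1 out of 6 (edgeR, Benjamini-Hochberg adjusted). The summed level of the 6 genes ran from 61.0 to 178.1 CPM in vCA1 vehicle libraries and from 91.2 to 432.7 CPM after dexamethasone, and in dCA1 from 286.7 to 891.5 CPM and from 95.8 to 850.9 CPM. None of the 6 genes was at 0 throughout a region. In punched tissue, fewer cells of a type and less RNA per cell cannot be told apart.

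Fitted beside the dentate level, Smad3 had a log2 fold change of -0.30 in dCA1 and 0.36 in vCA1, against -0.42 and 0.45 without it. The difference between the 2 regions was then 0.62 ± 0.15 (SE), against 0.87. In that fit 0 of 9683 genes passed the test of a different response in the 2 regions, against 2 without the covariate. In dDG and vDG the fold change of Smad3 was 0.02 and 0.04 with the covariate.

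Smad3 and the dentate level were also set side by side over the vehicle libraries of each hippocampal region. These libraries entered the contrast that selected Smad3, so the coefficients are a description with no test. Pearson's r between the dentate level and log2(CPM + 1) of Smad3 was 0.761 in dCA1 (n = 15), with Spearman's rho at 0.782. It was 0.661 in dDG (n = 15), with rho at 0.796, and 0.666 in vDG (n = 15), with rho at 0.582. In vCA1 r was 0.402 (n = 14) and rho 0.411. The 2 measures share the depth and scaling of each library.

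Without the 2 libraries farthest from the median dentate level, r was 0.716 in dCA1, 0.827 in dDG, 0.439 in vDG and 0.164 in vCA1. With log2(CPM + 5) in place of log2(CPM + 1), the value in vCA1 without 2 libraries was 0.812, while over all 14 libraries it was 0.385 against 0.402. The 2 libraries were picked anew on each scale, and how much of the change came from that pick was not tested. With the mean of each plate removed from both measures, r over all vehicle libraries was 0.863 in dCA1, 0.782 in dDG, 0.678 in vDG and 0.437 in vCA1. With the mean of each punching date removed, it was 0.595, 0.614, 0.496 and 0.373.

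**Figure D3:**
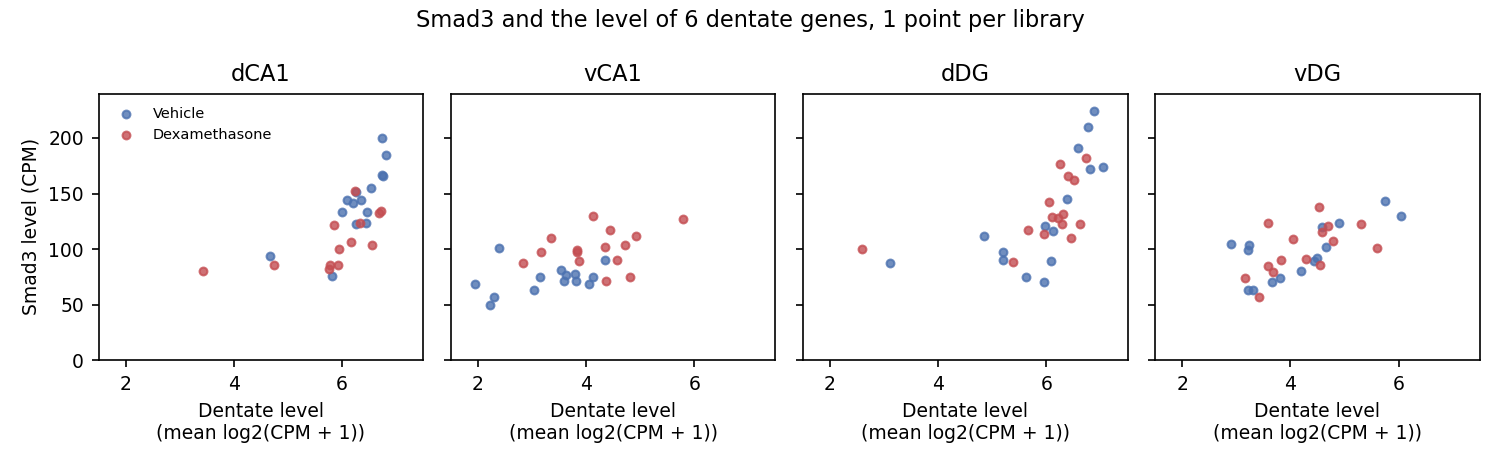
Smad3 level in CPM (vertical axis) against the dentate level (horizontal axis, mean log2(CPM + 1) of 6 dentate genes) in dCA1, vCA1, dDG and vDG, 1 point per library, vehicle in blue and dexamethasone in red. In vehicle libraries Smad3 is higher at a higher dentate level in dCA1 (r 0.761) and dDG (r 0.661), and in vCA1 the red points lie on average to the right of the blue ones (4.20 against 3.28) and above them (100.7 against 73.4 CPM).

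Of the other members, Smad1 rose in every region and Tgfb2 fell in CER, and no further call was made. These were 9 of 68 tests with edgeR's quasi-likelihood test at a Benjamini-Hochberg adjusted p under 0.05 over all genes of a region, where 5.17% of all tests in the 8 regions passed. With the replicate number as a block, which joins vehicle and dexamethasone libraries of a shared plate, 12 member tests passed. The share of all genes that passed was 6.18% in CER, 5.62% in AMY, 5.63% in PVN and 6.14% in PFC, and in the hippocampus 4.68% (dCA1), 5.45% (vCA1), 3.7% (dDG) and 3.93% (vDG). In dDG the block raised the count of genes called from 316 to 543. Among 7924 genes tested in all 8 regions, 0.883% were higher in all 8, as Smad1 was, and 0.391% lower in all 8. Calls in opposite directions in different regions, the property by which Smad3 was selected, were made for 6 genes (0.0757%). The median log2 fold change of the 9 members lay between -0.17 in dDG and 0.04 in PVN, against medians from -0.02 to 0.00 over all genes tested.

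**Figure D4:**
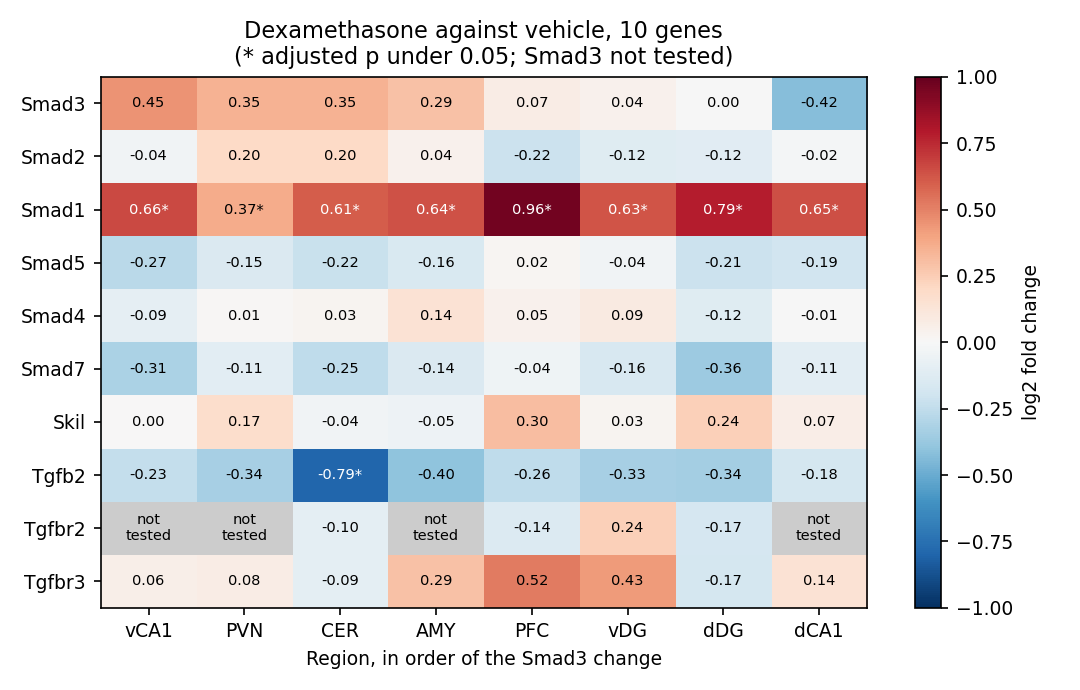
Log2 fold change of dexamethasone against vehicle for the 10 genes (rows) in 8 regions (columns, in order of the Smad3 change), coloured from blue (lower) to red (higher), with the value in each cell, an asterisk for an adjusted p under 0.05 and grey where the gene was not tested. Smad1 is the row that is red throughout, from 0.37 to 0.96, and Tgfb2 is blue throughout, with its lowest value of -0.79 in CER.

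Smad2, the closest relative of Smad3 and its partner below the TGF-beta receptor, had log2 fold changes near 0 in dCA1 and vCA1. In dCA1 it ran from 12.7 to 27.7 CPM in vehicle libraries (median 17.8 CPM) and from 15.2 to 28.1 CPM after dexamethasone (median 20.2 CPM). In vCA1 it ran from 20.3 to 37.3 CPM (median 28.0 CPM) and from 16.4 to 43.0 CPM (median 25.4 CPM). The groups overlapped in both regions, and the log2 fold changes were -0.02 ± 0.13 and -0.04 ± 0.13 (SE). Over the 8 regions they lay between -0.22 in PFC and 0.20 in CER, and none passed the test by edgeR or DESeq2, nor an unadjusted p of 0.05. The difference of the Smad2 response between vCA1 and dCA1 was -0.02 ± 0.18 (SE, adjusted p 1.0), where that of Smad3 was 0.87.

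Smad4, the partner shared by both branches, had the narrowest range of log2 fold changes among the members. They lay between -0.12 in dDG and 0.14 in AMY, with standard errors of 0.081 to 0.097. None passed by edgeR or DESeq2, nor an unadjusted p of 0.05. In dCA1 it ran from 69.8 to 111.8 CPM in vehicle libraries (median 94.1 CPM) and from 74.0 to 104.9 CPM after dexamethasone (median 90.7 CPM), and the dexamethasone range lay inside the vehicle range.

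Smad1, a carrier of the BMP branch, rose in all 8 regions. Its largest change was in PFC, where the 15 vehicle libraries ran from 21.5 to 40.6 CPM (median 28.4 CPM) and the 14 dexamethasone libraries from 44.6 to 69.7 CPM (median 57.8 CPM). The groups did not overlap there, and the log2 fold change was 0.96 ± 0.10 (SE, edgeR adjusted p 1.24e-09). In dDG the ranges were 22.0 to 42.2 CPM (median 33.4 CPM) and 31.6 to 81.0 CPM (median 55.1 CPM). There 14 of 15 dexamethasone libraries lay above the highest vehicle library, at 0.79 ± 0.12 (SE, adjusted p 1.09e-05). The smallest change was in PVN, the region with the highest vehicle level, where vehicle libraries ran from 31.9 to 63.9 CPM (median 48.0 CPM) and dexamethasone libraries from 46.2 to 78.0 CPM (median 61.0 CPM). There 5 of 15 dexamethasone libraries lay above the highest vehicle library, and the log2 fold change was 0.37 ± 0.092 (SE, adjusted p 0.00589).

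In the hippocampus the log2 fold changes of Smad1 were also 0.65 ± 0.13 in dCA1, 0.66 ± 0.11 in vCA1 and 0.63 ± 0.13 in vDG (SE, edgeR adjusted p 0.00116, 4.13e-05 and 0.000847). AMY gave 0.64 ± 0.10 and CER 0.61 ± 0.10 (SE, adjusted p 1.92e-05 and 4.08e-05). In dCA1 vehicle libraries ran from 19.2 to 59.9 CPM (median 34.6 CPM) and dexamethasone libraries from 35.5 to 72.2 CPM (median 51.2 CPM), and in vCA1 from 25.5 to 43.5 CPM (median 31.5 CPM) and from 30.8 to 72.7 CPM (median 54.3 CPM). The groups overlapped in both. Where Smad3 had opposite signs, Smad1 rose in both regions, with a difference of response between vCA1 and dCA1 of 0.01 ± 0.17 (SE, adjusted p 1.0). The difference was positive on 32 of 32 combinations of plate and region, from 0.22 to 1.10, and on 32 of 32 of date and region, from 0.20 to 1.12. Among 8 regions the Smad1 response did not differ past the threshold (adjusted p 0.378).

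After dexamethasone the mean level of Smad1 lay within a narrower band than in vehicle animals. Vehicle means ran from 29.5 ± 5.37 CPM in PFC (SD, n = 15) to 47.6 ± 7.60 CPM in PVN (SD, n = 14). After dexamethasone, means ran from 53.0 ± 10.4 CPM in dCA1 (SD, n = 13) to 61.6 ± 9.59 CPM in PVN (SD, n = 15). The narrowing was not tested beyond the interaction among regions.

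Smad5, the other BMP-branch member, had log2 fold changes between -0.27 in vCA1 and 0.02 in PFC. The value was negative in 7 of 8 regions without a call by edgeR or DESeq2, and 2 of the 8 had an unadjusted p under 0.05. In vCA1 vehicle libraries ran from 53.0 to 102.1 CPM (median 64.0 CPM) and dexamethasone libraries from 35.5 to 70.4 CPM (median 52.6 CPM), with 8 of 15 below the lowest vehicle library (log2 fold change -0.27 ± 0.11 SE, adjusted p 0.154). Smad1 and Smad5 therefore had opposite signs in 7 of 8 regions.

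The inhibitors were Smad7, which blocks receptor signalling and is itself a TGF-beta target, and Skil. Smad7 had a negative log2 fold change in 8 of 8 regions, between -0.36 in dDG and -0.04 in PFC, without a call by edgeR or DESeq2, and 3 had an unadjusted p under 0.05. In dDG it ran from 25.3 to 43.2 CPM in vehicle libraries (median 31.0 CPM) and from 12.7 to 36.1 CPM after dexamethasone (median 26.3 CPM). There 7 of 15 dexamethasone libraries lay below the lowest vehicle library (-0.36 ± 0.13 SE, adjusted p 0.158).

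Skil had log2 fold changes between -0.05 in AMY and 0.30 in PFC. In PFC it ran from 62.5 to 115.8 CPM in vehicle libraries (median 83.9 CPM) and from 64.9 to 144.0 CPM after dexamethasone (median 109.6 CPM), which overlapped (0.30 ± 0.10 SE, adjusted p 0.0598). DESeq2 called this difference (adjusted p 0.046), as did edgeR on the libraries that the authors kept (adjusted p 0.0174) and with the replicate number as a block (0.30, adjusted p 0.0121).

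Tgfb2, the ligand gene of the set, had a lower mean after dexamethasone in 8 of 8 regions and passed the test in CER. There the vehicle libraries ran from 18.9 to 82.2 CPM (median 30.3 CPM) and the dexamethasone libraries from 9.69 to 31.6 CPM (median 20.3 CPM). The groups overlapped, with 6 of 15 dexamethasone libraries below the lowest vehicle library and 1 above the vehicle median. The log2 fold change was -0.79 ± 0.18 (SE, edgeR adjusted p 0.00258). It was negative on 4 of 4 plates, from -1.20 to -0.22, and on 3 of 4 dates, from -1.22 to 0.23.

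The nearest miss for Tgfb2 was PVN, with 32.0 to 54.5 CPM in vehicle libraries (median 39.7 CPM) and 21.7 to 42.1 CPM after dexamethasone (median 32.1 CPM). Its log2 fold change there was -0.34 ± 0.12 (SE, adjusted p 0.084), and it passed with the replicate number as a block (-0.34, adjusted p 0.0403) and with at least 10 counts in every library (-0.35, adjusted p 0.0498). In the other 6 regions it lay between -0.40 in AMY and -0.18 in dCA1, and its response did not differ among regions past the threshold (adjusted p 1.0). In vehicle libraries the mean of Tgfb2 was 104.3 ± 22.5 CPM in dCA1 (SD, n = 15), 90.2 ± 34.7 CPM in dDG (SD, n = 15), 88.2 ± 34.5 CPM in vCA1 (SD, n = 14) and 59.5 ± 21.8 CPM in vDG (SD, n = 15). In the other 4 regions it lay between 34.3 ± 16.0 CPM in CER (SD, n = 15) and 40.5 ± 7.49 CPM in PVN (SD, n = 14).

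The 2 receptor genes among the members gave no call in edgeR's fit without covariates. Tgfbr2, the ligand-binding receptor, was near the limit of detection, with 2279 counts over all 235 libraries, 2 libraries at 0 and too few counts to be tested in AMY, PVN, dCA1 and vCA1. In the 4 tested regions its log2 fold change lay between -0.17 in dDG and 0.24 in vDG with standard errors near 0.20. Its 95% intervals reached from -0.55 to 0.62 over these regions.

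Tgfbr3 had log2 fold changes between -0.17 in dDG and 0.52 in PFC. In PFC it ran from 6.32 to 25.6 CPM in vehicle libraries (median 14.6 CPM) and from 4.78 to 27.5 CPM after dexamethasone (median 22.2 CPM), with overlap (0.52 ± 0.17 SE, adjusted p 0.0551). DESeq2 called this difference (adjusted p 0.0398), as did edgeR with date and plate as factors (adjusted p 0.0439) and with the replicate number as a block (0.58, adjusted p 0.0263).

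None of the 9 other members passed edgeR's test of a different response in dCA1 and vCA1, where 2 of 9683 genes passed (0.0207%). None of them had an unadjusted p under 0.05, and DESeq2 called none. Among 8 regions 1.17% of 11053 genes passed and none of the 9 did, by edgeR or by DESeq2, with 1 of the 9 at an unadjusted p under 0.05 in each. In vehicle libraries 8 of the 9 differed in level among regions by edgeR's test with the animal as a block, where 73.3% of 10451 genes did. The exception was Tgfbr2 (adjusted p 0.0923). From the lowest to the highest region, vehicle means spanned 3.57-fold for Smad3, 3.04-fold for Tgfb2, 2.64-fold for Tgfbr3, 2.18-fold for Skil, 2.04-fold for Smad7, 1.90-fold for Smad2, 1.61-fold for Smad1, 1.57-fold for Smad5 and 1.39-fold for Smad4.

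Vehicle levels of Skil and Smad4 across the 8 regions followed Smad3 most closely among the 8 other members compared, which leave out Tgfbr2, with Pearson's r of 0.86 and 0.776 over 8 regional means of log2(CPM + 1), and Smad1 ran against it at -0.741. Over 7923 genes, those most like Smad3 in vehicle level were Pitpnm2 (r 0.989), Ntrk3 (0.989), Arhgap20 (0.988), Eftud2 (0.988) and Mmp16 (0.988). The genes whose 8 log2 fold changes were most like those of Smad3 were Lars2 (r 0.974), Emp2 (0.962), Hecw1 (0.959), Vstm2a (0.952) and Cyb5a (0.942). Of these, Lars2 was -0.51 in dCA1 and 0.55 in vCA1, whereas Emp2 was -0.42 in dCA1 and -0.05 in vCA1, so its sign did not change. These coefficients describe 8 points that share libraries, and they were chosen as the highest among all genes.

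The wider pathway was read from a list of 69 further genes, of which 49 of 282 tests passed in the 8 regions (17.4%), 28 higher and 21 lower. Not every listed gene had the counts to be tested. At least 1 region tested 7 of 15 ligands, Tgfb1 not among them, and 9 of 11 receptors. The same held for 9 of 16 extracellular regulators, 11 of 13 intracellular regulators and 8 of 12 targets. The calls were 10 in dCA1, 10 in PFC, 6 in vCA1, 5 in each of CER, dDG, PVN and vDG, and 3 in AMY. Of the 49 calls, 23 belong to Id3, Col4a1 and Nrros. In 13 of the 49, of Nrros, Klf10, Ccn2 and Tgfb3, only a minority of the libraries in the lower group reached the level that the low-count filter asks for, so these genes were tested through the group where they were high. Without the 20 tests of this kind, called or not, 36 of 262 passed (13.7%). The share called is therefore not read against the 3.7% to 6.18% over all genes. The median log2 fold change over listed genes lay between -0.11 in dCA1 and 0.00 in PVN. By role, 24 of 57 tests of target genes passed, 8 of 65 of receptors, 5 of 19 of ligands, 8 of 50 of extracellular regulators and 4 of 88 of intracellular regulators. These counts include the 13 calls made through the high group. Nrros holds 7 of the 8 extracellular calls, and Tgfb3 1 of the 5 ligand calls. The target calls include 3 of Klf10 and those of Ccn2 in dCA1 and dDG. The roles are therefore not compared. With the replicate number as a block 54 pathway tests passed. Calls that the block added and that are not described with their gene were Id2, a BMP target, in CER (-0.25, adjusted p 0.0154) and dDG (-0.33, adjusted p 0.00516), Bambi, a decoy receptor, in dDG (0.64, adjusted p 0.03), and Bmpr1a, a BMP receptor, in vDG (-0.34, adjusted p 0.0336).

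Among the targets, Id3, an inhibitor of basic helix-loop-helix factors and a target of the BMP branch, fell in all 8 regions. Its log2 fold changes lay between -1.29 in PFC and -0.999 in PVN, with adjusted p-values of at most 2.98e-05. In PFC the vehicle libraries ran from 139.3 to 260.3 CPM (median 171.1 CPM) and the dexamethasone libraries from 31.0 to 100.9 CPM (median 72.3 CPM), with no overlap. In PVN the ranges were 62.3 to 126.4 CPM and 28.2 to 60.6 CPM, again with no overlap. Id3 was negative on every plate of every region and on each of the 4 dates compared, and its change ran against that of Smad1 in all 8 regions.

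Col4a1, a basement membrane collagen, rose in all 8 regions, from 0.44 ± 0.12 in vCA1 (SE, adjusted p 0.0171) to 1.11 ± 0.15 in CER (SE, adjusted p 3.39e-07). In CER it ran from 16.0 to 37.4 CPM in vehicle libraries (median 21.2 CPM) and from 20.3 to 66.7 CPM after dexamethasone (median 51.0 CPM), and 12 of 15 dexamethasone libraries exceeded the highest vehicle library. Ccn2, a matricellular protein gene and TGF-beta target, rose in dCA1 (1.31 ± 0.24), dDG (1.07 ± 0.25), vDG (1.06 ± 0.30) and PFC (0.71 ± 0.17, SE). Their adjusted p-values were 0.000245, 0.006, 0.0334 and 0.00352. In dCA1 3 of 15 vehicle and 11 of 13 dexamethasone libraries reached the filter's level for Ccn2, and in dDG 5 of 15 and 12 of 15. In dCA1 and dDG Ccn2 was thus tested through the group where it was high.

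In vCA1, where Smad3 was higher, Ccn2 was at -0.30 ± 0.25 (SE, adjusted p 0.675). Its difference between vCA1 and dCA1, -1.61 ± 0.41, did not pass (adjusted p 0.114), nor did that among 8 regions (adjusted p 0.071). The call in vDG was lost without the libraries over 50 CPM of Gabra6 (adjusted p 0.0699) and on the authors' library set (adjusted p 0.0573). Without the vehicle library of RIN 2.5, the only CER library under 4, Ccn2 also rose in CER (1.22, adjusted p 0.000559, against 0.60 with it). With it, 6 of 15 vehicle and 13 of 15 dexamethasone libraries of CER reached the filter's level. Klf10, an early response gene of TGF-beta, fell in the 3 regions where its vehicle libraries carried it past the low-count filter, by 0.89 in vCA1, 0.86 in PFC and 0.67 in dCA1 on the log2 scale (adjusted p 0.00606, 0.00224 and 0.0303). The dCA1 call was lost with the dentate level as a covariate (adjusted p 0.121) and without the low-count filter (adjusted p 0.0598). Without that filter Klf10 was negative in 8 of 8 regions, from -1.01 in AMY to -0.28 in dDG, and passed in PFC (adjusted p 0.0028), vCA1 (adjusted p 0.00973) and vDG (adjusted p 0.0182). Fn1, fibronectin, rose in CER (0.55 ± 0.17 SE, adjusted p 0.0361).

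**Figure D5:**
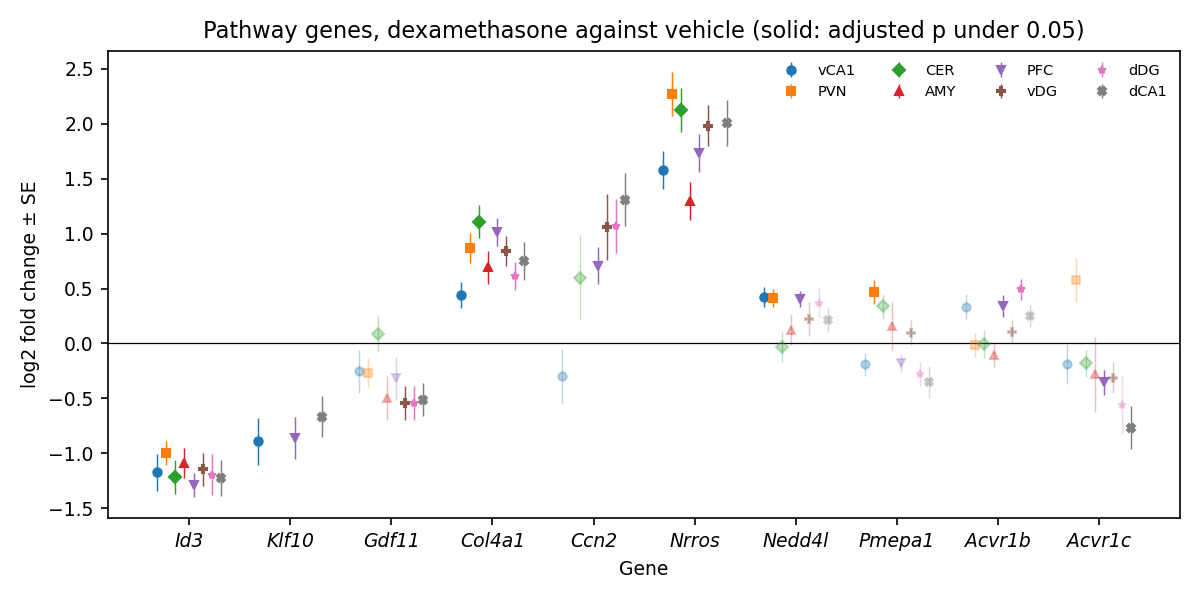
Log2 fold change ± SE of dexamethasone against vehicle (vertical axis) for 10 pathway genes (horizontal axis), 1 mark per region in which the gene was tested, solid where the adjusted p was under 0.05. All regions lie below 0 for Id3 (-1.29 to -0.999) and above 0 for Col4a1 (0.44 to 1.11) and Nrros (1.30 to 2.27).

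Among extracellular regulators, Nrros, which anchors latent TGF-beta on microglia and macrophages, rose in the 7 regions where it was tested, from 1.30 ± 0.17 in AMY to 2.27 ± 0.20 in PVN (SE), with adjusted p-values of at most 6.36e-07. It entered the test there through the dexamethasone libraries, since at most 3 vehicle libraries of a region reached the filter's level. Without the low-count filter it passed in all 8 regions, from 1.30 in AMY to 2.26 in PVN, with adjusted p-values of at most 1.33e-06. In PVN the vehicle libraries ran from 1.08 to 11.8 CPM (median 5.49 CPM) and the dexamethasone libraries from 15.8 to 43.7 CPM (median 27.6 CPM), with no overlap. Itgb8, an integrin subunit that activates latent TGF-beta, fell in dCA1 (-0.35 ± 0.10 SE, adjusted p 0.029).

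Of the other ligand genes, Tgfb3 rose in CER, the only region where it was tested (1.19 ± 0.18 SE, adjusted p 2.75e-06), and where Tgfb2 fell. There 15 of 15 dexamethasone and 3 of 15 vehicle libraries reached the filter's level. Without the filter Tgfb3 passed in CER (1.20, adjusted p 4.42e-06), and in the other 7 regions, where it did not pass, it lay between 0.03 and 0.78. Gdf11, a ligand that signals through Smad2 and Smad3, fell in vDG (-0.54 ± 0.15), dDG (-0.54 ± 0.16) and dCA1 (-0.51 ± 0.15, SE), with adjusted p-values of 0.0298, 0.041 and 0.041. Without the low-count filter the 3 fold changes were -0.55, -0.54 and -0.51 and none passed (adjusted p 0.0503, 0.074 and 0.077). With the replicate number as a block Gdf11 did not pass in dDG (-0.53, adjusted p 0.0518) or dCA1 (-0.47, adjusted p 0.0826), nor with date and plate as factors (adjusted p 0.0802 and 0.0577). The dCA1 call was also lost with DESeq2 (adjusted p 0.0516), without libraries of RIN under 4 (adjusted p 0.0587) and on the authors' library set (adjusted p 0.0544), and the vDG call without the libraries over 50 CPM of Gabra6 (-0.48, adjusted p 0.131). Bmp3 fell in PFC (-0.56 ± 0.17 SE, adjusted p 0.0334), a call lost on the authors' library set (adjusted p 0.0502).

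Of 9 other receptor genes tested, 6 changed in 1 or 2 regions each, while Bmpr1a and Bmpr2, tested in 8 regions, and Acvr2b, tested in 1, gave no call in the fit without covariates. In dCA1, Tgfbr1, the partner of Tgfbr2, fell by 0.55 on the log2 scale (adjusted p 0.0168; in AMY it passed only with the replicate number as a block, at -0.38 and adjusted p 0.0499), Bmpr1b fell by 0.72 (adjusted p 0.00803) and Acvr1c by 0.77 (adjusted p 0.0125). Acvr1c also fell in PFC (-0.36 ± 0.11 SE, adjusted p 0.0474), a call lost without the low-count filter (adjusted p 0.0645), with RIN as a covariate (adjusted p 0.0505) and on the authors' library set (adjusted p 0.0764). In PVN it was at 0.58 and passed with the replicate number as a block (0.57, adjusted p 0.0416) and with date and plate as factors (0.61, adjusted p 0.0281). Acvr1 fell in vCA1 (-0.65 ± 0.16 SE, adjusted p 0.00628). Acvr1b, an activin receptor that also acts on Smad2 and Smad3, rose in dDG (0.49 ± 0.096 SE, adjusted p 0.000789) and PFC (0.34 ± 0.10 SE, adjusted p 0.031), and Acvr2a in PFC (0.36 ± 0.11 SE, adjusted p 0.0274; 0.31 and adjusted p 0.072 with the replicate number as a block).

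Among intracellular regulators, Nedd4l, a ubiquitin ligase for activated Smad2 and Smad3, rose in vCA1 (0.42 ± 0.095), PVN (0.41 ± 0.080) and PFC (0.41 ± 0.073, SE), with adjusted p-values of 0.00245, 0.000287 and 9.92e-05. With the dentate level as a covariate it passed in dCA1 (0.36, adjusted p 0.00169) and dDG (0.37, adjusted p 0.000828) and no longer in vCA1 (0.22, adjusted p 0.372). With the replicate number as a block it passed in dDG (0.39, adjusted p 0.00687). Pmepa1, a TGF-beta target that restrains Smad2 and Smad3, rose in PVN (0.47 ± 0.11 SE, adjusted p 0.00402), and with the replicate number as a block it also passed in CER (0.36, adjusted p 0.0328).

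Some markers of endothelium and microglia fell beside these changes, while most markers of either list were not called. Of 8 endothelial markers, 5 were tested in every region, and Flt1 and Slco1a4 fell in all 8 while the others gave no call. The median log2 fold change of those tested lay between -0.41 in dDG and 0.09 in vDG. Over all regions the summed level of the 8 ran from 223.3 to 954.3 CPM in vehicle libraries and from 181.5 to 543.8 CPM after dexamethasone. Its median was lower after dexamethasone in every region. By edgeR 22 of 40 endothelial tests had an unadjusted p under 0.05, and 16 passed after adjustment. Of 6 microglial markers, 5 or 6 were tested, and Cx3cr1 (-2.39 to -2.02) and P2ry12 (-1.17 to -0.70) fell in all 8 regions while the others gave no call, and the median lay between -0.32 in AMY and 0.00 in PVN. Over all regions the summed level of the 6, which includes Cx3cr1 and P2ry12, ran from 191 to 890.1 CPM and from 104.2 to 381.7 CPM. Its median was lower after dexamethasone in every region, and within AMY, CER, PFC and PVN the groups did not overlap. By edgeR 19 of 42 microglial tests had an unadjusted p under 0.05, and 16 passed after adjustment. Among 6 astrocyte markers S1pr1 fell in all 8 regions, and in dCA1 Aqp4 fell (-0.44) and Aldh1l1 rose (0.72), and their summed level ran from 957.1 to 3586 CPM in vehicle libraries and from 893.9 to 2760 CPM after dexamethasone. Of other lists, edgeR called 1 of 25 tests of fibroblast markers (Col1a2, higher), 1 of 48 of oligodendrocyte markers (Mog, lower) and 1 of 12 of choroid plexus markers (Ttr, lower in vCA1, not called by DESeq2). For 6 mural markers edgeR and DESeq2 called 0 of 27 tests, with 5 at an unadjusted p under 0.05, and for 6 neuronal markers 0 of 48, with 0 at that level. No listed marker was at 0 throughout a region. The part of these shifts in the changes of Smad1, Id3, Col4a1 and Nrros was not tested.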

How the data were processed

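Counts of unique 3' end tags per gene (QuantSeq forward kit with molecular identifiers, per the labels' protocols) were deposited by the authors as 1 table of 27998 genes and 235 libraries. The submitters' processing notes name mm10, FastQC 0.11.4, cutadapt, UMI-tools 0.5.4, STAR 2.6.0a, featureCounts 1.6.4, DESeq2 1.30.1 and R 4.0.5. The use of strand is not given in the sources used here. Tgfb2 shares 2.14% of its exon bases with Gm29491 on the opposite strand, which had 1 count in all. The authors also deposited variance-stabilised log2 values for 228 of the libraries, which entered only as an alternative. A table of gene names gave symbols for 27645 genes, of which 99.9% overlapped their GENCODE position on GRCm38.

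Genes that passed filterByExpr in a region were scaled with TMM (trimmed mean of M values) and tested for dexamethasone against vehicle by edgeR 4.0.16 (quasi-likelihood, R 4.3.3), without covariates. Calls are those with a Benjamini-Hochberg adjusted p under 0.05 over all genes tested. SE was computed from the fold change and its F statistic. Interactions were fitted over the libraries of the regions compared. Vehicle levels were compared with the animal as a block. CPM are counts per 1000000 with 1 TMM scaling over all libraries. Smad3 is left out of counts of members by test, and its correlations carry no p, although tests of its vehicle levels and correlations had been planned, because it was selected on these libraries. Other tools were limma 3.58.1, DESeq2 1.42.0, matplotlib 3.10.9, pandas 2.3.3, numpy 2.4.6, scipy 1.17.1 and Python 3.11.15. On counts simulated for AMY over 8611 genes, the test recovered 93 of 100 genes changed 2-fold and 67 of 100 changed 1.5-fold, with 8 false calls. The simulation gave all genes the same dispersion and held no plate, date or punch effects. Its rates therefore need not hold for more variable genes.

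The members, the pathway list and the marker lists were chosen with earlier results of these data known. Genes named are the 10 members, listed pathway genes past the threshold in at least 2 regions or with the largest change among those past it in a region, and the 5 genes most like Smad3 in response and in vehicle level, among those averaging at least 5 CPM. Single calls of Tgfb3, Tgfbr1, Bmpr1b, Itgb8, Acvr1, Acvr2a, Bmp3, Fn1 and Pmepa1, the uncalled Bmpr1a, Bmpr2, Acvr2b, Id2 and Bambi, and the marker genes, were named after their values were seen. Libraries of a group come from separate animals. Per the labels, vehicle and dexamethasone libraries of 1 number and region shared the library plate in 115 of 115 pairs and the punching date in 109, so the number marks a shared batch. Deviations of same-numbered libraries correlated above 0.1 in 4 of 14 pairs in vCA1 to 12 of 15 in dDG. The fits reported first have no block, and the blocked value stands beside each result whose call it changed. Libraries of a group differed beyond counting noise (chi-square over degrees of freedom at least 1.34), so each counted once. Alternatives were another scaling and test, other count filters, the replicate number as a block, date and plate, RIN, the authors' library set and, chosen after seeing the data, leaving out libraries over 50 CPM of Gabra6, the dentate level as a covariate in counts of calls, and plate or date means removed from the correlations.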

Additional observations from a re-analysis of the deposited data

Results flagged for a closer look

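The response of 2 listed pathway genes differed among the 8 regions by edgeR's interaction test, in which 1.17% of all genes passed. For Pmepa1 the adjusted p was 0.0139, and it lay between 0.00505 and 0.0203 in the alternatives. Pmepa1 was higher after dexamethasone in PVN (0.47 ± 0.11 SE) and CER (0.34 ± 0.12 SE) and lower in dCA1 (-0.35 ± 0.14 SE) and dDG (-0.28 ± 0.11 SE), of which PVN alone passed within its region. CER passed with the replicate number as a block (0.36, adjusted p 0.0328) and dCA1 with the dentate level as a covariate (-0.48, adjusted p 0.0187). In PVN its vehicle libraries ran from 50.6 to 130.7 CPM with a median of 74.2 CPM, and the dexamethasone libraries from 75.4 to 171.5 CPM with a median of 105.4 CPM, which overlapped. For Acvr1b the adjusted p was 0.0334, and it lay between 0.0122 and 0.0762 in the alternatives, the highest without the low-count filter, where it did not pass. Acvr1b was higher in dDG (0.49 ± 0.096 SE), PFC (0.34 ± 0.10 SE) and vCA1 (0.34 ± 0.11 SE, adjusted p 0.0791, and passing with date and plate as factors at 0.38 and 0.0233 and on the authors' library set at 0.37 and 0.0364) and close to its vehicle level in PVN (-0.02 ± 0.11 SE) and CER (-0.01 ± 0.12 SE). In dDG the vehicle libraries of Acvr1b ran from 35.7 to 74.9 CPM and the dexamethasone libraries from 55.8 to 94.5 CPM, with 6 of 15 above the highest vehicle library.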

How the results depend on the processing

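Across the alternatives the sign of Smad3 held in every region except dDG, where its value lay between -0.02 and 0.05, and its difference between vCA1 and dCA1 lay between 0.62 (dentate level as a covariate) and 0.89. The member calls, with Smad3 left out, numbered 8 to 12 against 9. None of the other members passed either interaction test in any alternative that was run, and Smad3 carries no test. With at least 10 counts in every library, fewer genes could be tested, and the pathway calls numbered 19 against 49, in the other settings 46 to 60 (60 without a filter, 55 with the dentate level as a covariate), and the members other than Smad3 differing in vehicle level 3 against 8. With the replicate number as a block, 12 member tests and 54 pathway tests passed, adding Skil in PFC (adjusted p 0.0121), Tgfbr3 in PFC (0.0263) and Tgfb2 in PVN (0.0403), the last also with the 10-count filter (0.0498). The pathway calls that the block added or ended stand beside their genes in the results, and it changed no other call of a member or pathway gene. Single member results kept their side of the threshold in 579 comparisons with an alternative, gained a call in 8 and lost none, and results of pathway genes called in at least 1 region kept it in 1025, gained one in 13 and lost one in 22. Depth limits mainly Tgfbr2, Klf10 and Tgfb3, which were tested in few regions.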
